A study of Homo sapiens with 3 samples.

Results

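Interferon-stimulated genes are described here across 3 RNA-seq libraries of HCC827, an established human lung adenocarcinoma line whose growth depends on a mutant, active EGF receptor. The members were picked by symbol from a list of 54 textbook genes of the interferon response, and all 54 were found among the 30866 distinct symbols of the deposited table, each on a single row. Their measured values did not enter the rule, but the list was chosen with earlier results of these data known. Levels are in FPKM, the number of sequenced fragments of a gene scaled by its transcript length and by the depth of the library, so that different genes can be set side by side.

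Every population descended from HCC827 cells that carry ClonTracer, a library of DNA barcodes that marks individual clones, kept as a pool of many clones. The dual-resistant cells were grown out of the erlotinib-resistant population during 10 more days, with 0.2 µM crizotinib, which blocks the MET kinase, added to 2 µM erlotinib. The erlotinib-resistant cells had been kept for 47 days in 2 µM erlotinib, which blocks the EGF receptor kinase. The vehicle cells had 4 days in 0.1% DMSO. Each population gave 1 library, so no difference below has an error estimate, a test or a p-value, and drug, resistance and time in culture cannot be told apart. The study asked which expression changes go with resistance to each inhibitor.

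Interferons are secreted proteins that cells release on sensing viral or misplaced nucleic acid. Type I and type III interferons act through the kinases JAK1 and TYK2 to activate STAT factors, among them STAT2, which join IRF9 and bind the interferon-stimulated response element in target promoters. Type II interferon acts through JAK1 and JAK2 to give STAT dimers that bind the gamma-activated sequence. The targets include RNA sensors, proteins that block viral entry, replication or release, and the factors of the pathway itself. Some carcinoma lines keep part of this programme on without added interferon.

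The epithelial identity in the labels was checked first. All 6 epithelial markers were present in the 3 libraries, with a summed level of 2292 FPKM in dual-resistant, 5200.2 in erlotinib-resistant and 5032 in vehicle cells. EPCAM stood at 41.1 FPKM in dual-resistant, 345 in erlotinib-resistant and 306 in vehicle cells, and CDH1, the cadherin of epithelial junctions, at 22.8 FPKM in dual-resistant, 194 in erlotinib-resistant and 172 in vehicle cells, so both were lowest in dual-resistant cells. KRT8 differed little between the resistant libraries, at 542 FPKM in dual-resistant, 573 in erlotinib-resistant and 905 in vehicle cells. The other keratins of the list fell further in dual-resistant cells. KRT7 stood at 509 FPKM in dual-resistant, 1835 in erlotinib-resistant and 1357 in vehicle cells. In the same order, KRT18 stood at 424, 993 and 1115 FPKM and KRT19 at 752, 1261 and 1175 FPKM. The 3 lung adenocarcinoma markers summed to 38.5 FPKM in dual-resistant, 123 in erlotinib-resistant and 204 in vehicle cells, with NAPSA at 10.1 FPKM in dual-resistant, 81.4 in erlotinib-resistant and 147 in vehicle cells. The 6 fibroblast markers summed to 8.24 FPKM in dual-resistant, 2.56 in erlotinib-resistant and 3.90 in vehicle cells. Of these, PDGFRB and LUM passed 1 FPKM in dual-resistant cells alone, and PDGFRA was listed at 0 throughout. The 4 endothelial markers summed to 0.248 FPKM in dual-resistant, 0.227 in erlotinib-resistant and 1.38 in vehicle cells. The 10 leukocyte markers summed to 1.19, 0.915 and 4.49 FPKM in the dual-resistant, erlotinib-resistant and vehicle libraries. Most of the vehicle sum was CD14, at 4.10 FPKM, whereas PTPRC, the pan-leukocyte marker, stood at 0.00818 FPKM there. CD3E, MS4A1 and LILRA4 were listed at 0 throughout. The part of other cells, or of these shifts in epithelial and lung markers, in the results below was not tested. The table holds no counts. From the lowest values of single-exon genes, 1 FPKM in a transcript of 1 kb stood on about 43.4 fragments in dual-resistant, 47.2 in erlotinib-resistant and 69.0 in vehicle cells. The table has 31402 rows, and the FPKM values of a library sum to 494817, 528920 and 596084 in the same order.

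Vehicle-treated HCC827 cells expressed many of the interferon-stimulated genes at high levels, and both resistant populations held far less of these transcripts in sum. The 54 genes together summed to 1837 FPKM in dual-resistant, 1869 in erlotinib-resistant and 10334 in vehicle cells. These sums were 0.371% of all FPKM in dual-resistant, 0.353% in erlotinib-resistant and 1.73% in vehicle cells. At least 100 FPKM was reached by 4 members in dual-resistant, 4 in erlotinib-resistant and 14 in vehicle cells. Among members that reached 1 FPKM in any library, the median was 11.9 FPKM in dual-resistant, 14.7 in erlotinib-resistant and 55.4 in vehicle cells. Over all such genes it was 10.5, 10.5 and 10.1 FPKM in the same order. Some members were weak even in vehicle cells, such as RTP4 at 2.09 FPKM and IFITM2 at 3.78. IFI27, the most abundant member in the vehicle library, had 12 genes of the whole table above it there, against 245 in the dual-resistant and 181 in the erlotinib-resistant library. In these bulk libraries, fewer cells that express a gene and less RNA per cell cannot be told apart.

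The 53 members that reached 1 FPKM in any library were set beside the 13425 genes that meet the same minimum. SAMHD1, a phosphohydrolase that degrades deoxynucleotides, was under it, at 0.0188 FPKM in dual-resistant and 0.120 in vehicle cells and listed at 0 in erlotinib-resistant cells. RTP4, RSAD2 and CMPK2 reached 1 FPKM in the vehicle library alone, so the minimum itself fixes their direction against vehicle. Of the 53, 51 were highest in the vehicle library. PARP14 was highest in erlotinib-resistant cells and TRIM25 in dual-resistant cells.

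**Figure D1:**
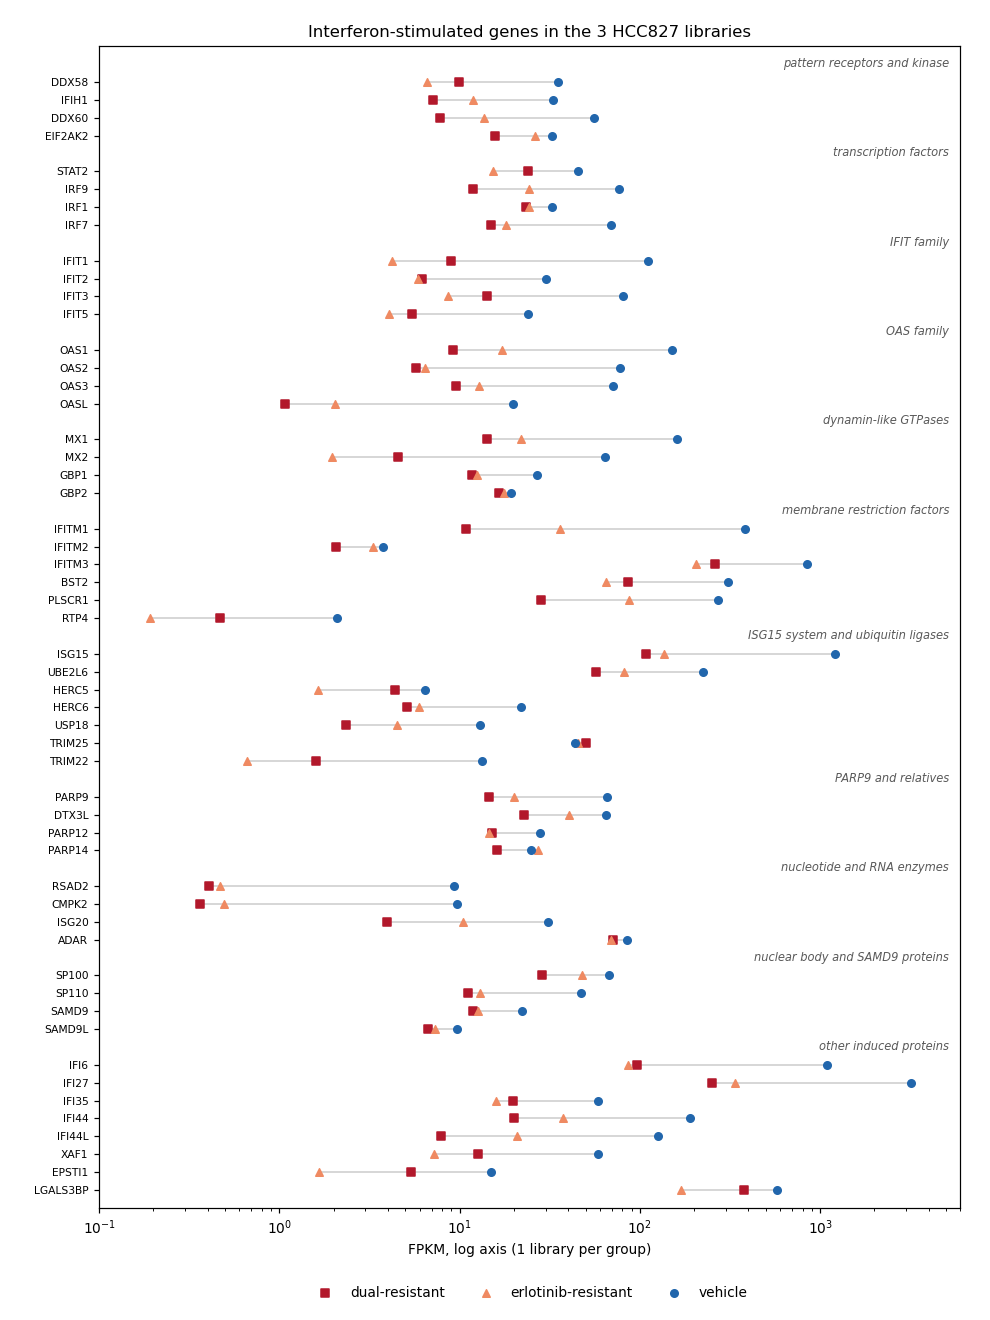
FPKM of the 53 compared interferon-stimulated genes on a log axis, grouped by role, with squares for the dual-resistant, triangles for the erlotinib-resistant and circles for the vehicle library (1 library each). For 51 genes the vehicle circle is the rightmost symbol, and grey lines join the lowest and highest value of a gene.

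The first comparison set the erlotinib-resistant library against the vehicle library. A gene is called higher or lower where log2 of FPKM + 1 differs by at least 1, which is 2-fold on that scale. The added 1 FPKM understates differences of weakly expressed genes. All folds below are of FPKM + 1, while percents of the vehicle level are of plain FPKM. Of the 53 members, 41 were lower and none was higher, with 24 lower by at least 4-fold and 10 by at least 8-fold. Across all 13381 genes compared, 6.03% were lower and 3.81% higher, with 213 lower by at least 4-fold and 63 by at least 8-fold. The 24 members hold RSAD2 and CMPK2, whose direction the minimum fixed. The median log2 difference was -1.82 over the members and 0.00 over all genes. The 12 members within the limit were EIF2AK2, IRF1, GBP2, IFITM2, TRIM25, DTX3L, PARP12, PARP14, ADAR, SP100, SAMD9 and SAMD9L.

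**Figure D2:**
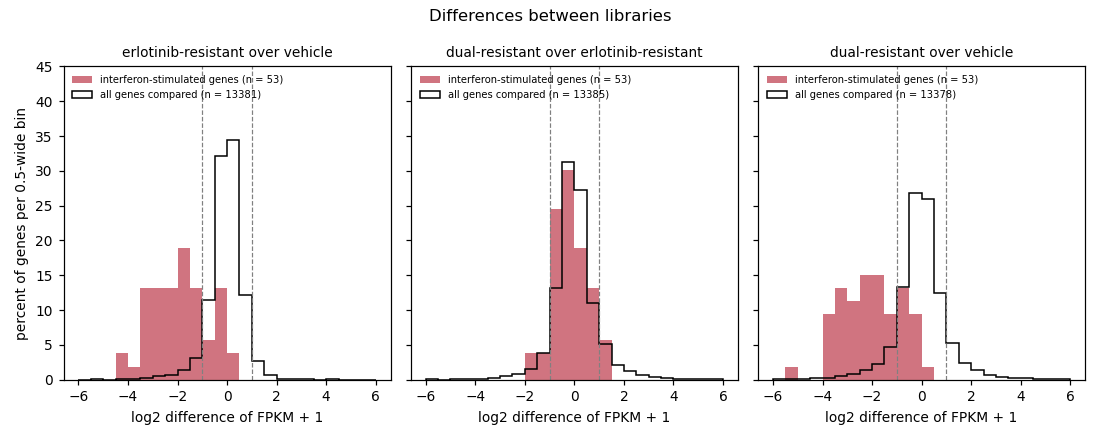
Log2 differences of FPKM + 1 in the 3 comparisons (1 library per group), as the percent of genes in bins 0.5 wide, with filled bars for the 53 interferon-stimulated genes, an outline for all genes compared and dashed lines at the limit of 1 in each direction (values beyond 6 are drawn in the end bins). Against vehicle, the medians of the members lie at -1.82 for erlotinib-resistant and -2.06 for dual-resistant cells, and between the resistant libraries at -0.13.

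Sensors of foreign RNA were lower in both resistant libraries for 3 of 4 members. DDX58, which encodes the cytosolic sensor RIG-I (Entrez ID 23586, chromosome 9, 32455300 to 32526322, GRCh37 as are all gene positions here), stood at 9.97 FPKM in dual-resistant, 6.63 in erlotinib-resistant and 35.2 in vehicle cells. IFIH1, the sensor MDA5 of long double-stranded RNA, stood at 7.16 FPKM in dual-resistant, 11.9 in erlotinib-resistant and 33.0 in vehicle cells. DDX60, a helicase related to these sensors, stood at 7.82 FPKM in dual-resistant, 13.6 in erlotinib-resistant and 55.4 in vehicle cells. The log2 differences of erlotinib-resistant over vehicle were -2.25 for DDX58, -1.40 for IFIH1 and -1.95 for DDX60. EIF2AK2, the kinase PKR that halts translation on binding double-stranded RNA, was within the limit, at 15.8 FPKM in dual-resistant, 26.2 in erlotinib-resistant and 32.4 in vehicle cells. It was lowest in dual-resistant cells, where dual-resistant over vehicle lay just inside the limit, at -0.99, and just outside, at -1.03, with a pseudocount of 0.1 FPKM.

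Among transcription factors of the response, IRF9 and STAT2, partners in the complex that binds the response element, were lower in erlotinib-resistant cells. IRF9 (Entrez ID 10379, chromosome 14, 24629729 to 24635774) stood at 11.9 FPKM in dual-resistant, 24.2 in erlotinib-resistant and 76.5 in vehicle cells, a log2 difference of -1.62 for erlotinib-resistant over vehicle. STAT2 (Entrez ID 6773, chromosome 12, 56735382 to 56754037) stood at 24.1 FPKM in dual-resistant, 15.3 in erlotinib-resistant and 45.4 in vehicle cells, a difference of -1.51. Overlap with RNF31 leaves some IRF9 reads open to either gene. IRF9 was lowest in dual-resistant cells, while STAT2 was lowest in erlotinib-resistant cells. IRF7, which drives transcription of type I interferon genes, stood at 15.0 FPKM in dual-resistant, 18.2 in erlotinib-resistant and 69.0 in vehicle cells and was 3.66-fold lower in erlotinib-resistant than in vehicle cells. IRF1, a factor also induced strongly by type II interferon, differed little, at 23.3 FPKM in dual-resistant, 24.4 in erlotinib-resistant and 32.5 in vehicle cells.

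All 4 members of the IFIT family, which bind viral RNA and sit side by side on chromosome 10, were lower in both resistant libraries. IFIT1 (Entrez ID 3434, chromosome 10, 91152322 to 91163744) stood at 8.93 FPKM in dual-resistant, 4.20 in erlotinib-resistant and 110.5 in vehicle cells, so that erlotinib-resistant cells kept 3.80% and dual-resistant cells 8.08% of the vehicle level. IFIT3, a partner that steadies IFIT1 on RNA, stood at 14.2 FPKM in dual-resistant, 8.63 in erlotinib-resistant and 80.3 in vehicle cells. IFIT2, another partner in these complexes, stood at 6.19 FPKM in dual-resistant, 5.91 in erlotinib-resistant and 30.1 in vehicle cells. IFIT5, which binds RNA with a free triphosphate end, stood at 5.47 FPKM in dual-resistant, 4.04 in erlotinib-resistant and 23.9 in vehicle cells. In each of the 4, the erlotinib-resistant library had the lowest value. LIPA, a lysosomal lipase gene whose row in the table overlaps all 4 IFIT genes, stood at 24.3 FPKM in dual-resistant, 24.1 in erlotinib-resistant and 26.1 in vehicle cells.

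The OAS family makes short oligoadenylates that switch on the nuclease RNase L, and all 4 members were lower. OAS1 (Entrez ID 4938, chromosome 12, 113344739 to 113369990) stood at 9.19 FPKM in dual-resistant, 17.2 in erlotinib-resistant and 150.4 in vehicle cells, a log2 difference of -3.06 for erlotinib-resistant over vehicle. OAS2 stood at 5.70 FPKM in dual-resistant, 6.39 in erlotinib-resistant and 77.9 in vehicle cells and was 10.7-fold lower in erlotinib-resistant than in vehicle cells. OAS3, the longest of the enzymes, stood at 9.51 FPKM in dual-resistant, 12.8 in erlotinib-resistant and 70.8 in vehicle cells. OASL, a relative without the synthetase activity, stood at 1.07 FPKM in dual-resistant, 2.04 in erlotinib-resistant and 19.9 in vehicle cells. In contrast to the IFIT family, each OAS gene was lowest in the dual-resistant library, although the step between the resistant libraries was within the limit for all of them.

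Of the dynamin-like GTPases, the MX pair was far lower and the guanylate-binding pair less so. MX1 (Entrez ID 4599, chromosome 21, 42792520 to 42831141), which blocks influenza and other viruses in the cytoplasm, stood at 14.2 FPKM in dual-resistant, 22.0 in erlotinib-resistant and 162 in vehicle cells. MX2 (Entrez ID 4600, chromosome 21, 42733950 to 42780869), which acts on HIV near the nuclear pore, stood at 4.55 FPKM in dual-resistant, 1.96 in erlotinib-resistant and 64.1 in vehicle cells, and its log2 difference of -4.46 for erlotinib-resistant over vehicle was the lowest of the 53. GBP1 stood at 11.7 FPKM in dual-resistant, 12.5 in erlotinib-resistant and 27.1 in vehicle cells, close to the limit at -1.06 for erlotinib-resistant over vehicle, and inside it, at -0.89 against vehicle in both resistant libraries, once all libraries were scaled to the same sum. GBP2 stood at 16.5 FPKM in dual-resistant, 17.7 in erlotinib-resistant and 19.3 in vehicle cells and was within it. Both guanylate-binding proteins are known as targets of type II interferon.

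Membrane proteins that restrict viruses were lower for 5 of 6 members. Of these, RTP4 had its direction fixed by the minimum of 1 FPKM. IFITM1 (Entrez ID 8519, chromosome 11, 313991 to 315272), which hinders fusion of viral and cell membranes, stood at 10.8 FPKM in dual-resistant, 36.1 in erlotinib-resistant and 381 in vehicle cells. IFITM3, its relative in endosomes, stood at 260.0 FPKM in dual-resistant, 205 in erlotinib-resistant and 849.7 in vehicle cells, the second highest level among the members in dual-resistant and in erlotinib-resistant cells. IFITM1 kept 2.83% of its vehicle level in dual-resistant cells, the smallest remainder of any compared member, whereas IFITM3 kept 30.6%. IFITM2 stood at 2.06 FPKM in dual-resistant, 3.30 in erlotinib-resistant and 3.78 in vehicle cells and was within the limit. IFITM2 and IFITM3 are near-identical in sequence and their reads can be split between them, so both values are uncertain. BST2, the tetherin that holds budding virions at the surface, stood at 86.6 FPKM in dual-resistant, 64.8 in erlotinib-resistant and 310.1 in vehicle cells. PLSCR1, a phospholipid scramblase, stood at 28.2 FPKM in dual-resistant, 87.6 in erlotinib-resistant and 271 in vehicle cells. RTP4, a transport protein for receptors, stood at 0.468 FPKM in dual-resistant, 0.193 in erlotinib-resistant and 2.09 in vehicle cells, with few fragments behind the values of the resistant libraries. Its difference of -1.07 for dual-resistant over vehicle was -0.94 with libraries scaled to the same sum.

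The ISG15 system attaches the ubiquitin-like protein ISG15 to other proteins. ISG15 itself, the conjugating enzyme UBE2L6, the ligase HERC5 and the protease USP18 were all lower in erlotinib-resistant than in vehicle cells. ISG15 (Entrez ID 9636, chromosome 1, 948847 to 949919) stood at 108 FPKM in dual-resistant, 136 in erlotinib-resistant and 1218 in vehicle cells, a log2 difference of -3.15 for erlotinib-resistant over vehicle. UBE2L6, the conjugating enzyme, stood at 57.3 FPKM in dual-resistant, 81.6 in erlotinib-resistant and 225 in vehicle cells. HERC5, the main human ligase for ISG15, stood at 4.40 FPKM in dual-resistant, 1.64 in erlotinib-resistant and 6.41 in vehicle cells. In dual-resistant over vehicle, HERC5 was within the limit, at -0.46, while ISG15 was past it, at -3.48. HERC6, which does this work in mouse, stood at 5.11 FPKM in dual-resistant, 5.97 in erlotinib-resistant and 21.9 in vehicle cells. USP18, the protease that removes ISG15 and also restrains the type I receptor, stood at 2.33 FPKM in dual-resistant, 4.50 in erlotinib-resistant and 13.0 in vehicle cells, with the reservation that the genome holds close copies of this gene. Of the ubiquitin ligases of the TRIM family, TRIM22 stood at 1.61 FPKM in dual-resistant, 0.666 in erlotinib-resistant and 13.3 in vehicle cells, and TRIM25, which acts on RIG-I, at 50.4 FPKM in dual-resistant, 45.6 in erlotinib-resistant and 43.8 in vehicle cells. TRIM25 was the only member whose vehicle value was the lowest of the 3. TRIM5, whose row overlaps that of TRIM22, stood at 9.40 FPKM in dual-resistant, 9.08 in erlotinib-resistant and 8.92 in vehicle cells.

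PARP9 and its binding partner DTX3L, a ubiquitin ligase, lie next to each other on chromosome 3. PARP9 stood at 14.7 FPKM in dual-resistant, 20.0 in erlotinib-resistant and 66.2 in vehicle cells, a log2 difference of -1.68 for erlotinib-resistant over vehicle. DTX3L stood at 22.8 FPKM in dual-resistant, 40.4 in erlotinib-resistant and 64.6 in vehicle cells, a difference of -0.66 that was within the limit, against -1.46 for dual-resistant over vehicle. Their rows overlap at 1 end, so reads there can count for either. The ADP-ribosyltransferases PARP12 and PARP14 were within the limit in both comparisons with vehicle. PARP12 stood at 15.1 FPKM in dual-resistant, 14.7 in erlotinib-resistant and 27.9 in vehicle cells and PARP14 at 16.1 FPKM in dual-resistant, 27.3 in erlotinib-resistant and 25.0 in vehicle cells.

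Enzymes of nucleotides and RNA were lower for 3 of the 4 compared. For RSAD2 and CMPK2 the minimum of 1 FPKM fixed this direction, while ISG20 passed it in each library. RSAD2, the radical enzyme viperin that makes a chain-terminating nucleotide, stood at 0.405 FPKM in dual-resistant, 0.471 in erlotinib-resistant and 9.34 in vehicle cells. CMPK2, a nucleotide kinase encoded next to it, stood at 0.361 FPKM in dual-resistant, 0.492 in erlotinib-resistant and 9.74 in vehicle cells. The neighbours thus had like values in each library. ISG20, an exonuclease of single-stranded RNA, stood at 3.94 FPKM in dual-resistant, 10.5 in erlotinib-resistant and 31.0 in vehicle cells. ADAR, which edits adenosine to inosine in double-stranded RNA and has a constitutive promoter beside its induced one, stood at 70.8 FPKM in dual-resistant, 69.5 in erlotinib-resistant and 84.5 in vehicle cells and was within the limit.

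Nuclear body and SAMD9 proteins had the median closest to 0 of the role groups in erlotinib-resistant over vehicle, -0.62, with 1 of 4 lower. SP110 stood at 11.2 FPKM in dual-resistant, 13.0 in erlotinib-resistant and 47.0 in vehicle cells, a log2 difference of -1.78 for erlotinib-resistant over vehicle. SP100, a core component of PML nuclear bodies, stood at 28.6 FPKM in dual-resistant, 48.0 in erlotinib-resistant and 67.7 in vehicle cells and was lower against vehicle in dual-resistant cells alone, at -1.21, or -0.95 with libraries scaled to the same sum. SAMD9 and SAMD9L, restriction factors of poxviruses that lie side by side on chromosome 7, were within the limit throughout. SAMD9 stood at 11.9 FPKM in dual-resistant, 12.7 in erlotinib-resistant and 22.1 in vehicle cells and SAMD9L at 6.68 FPKM in dual-resistant, 7.35 in erlotinib-resistant and 9.71 in vehicle cells.

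The remaining 8 induced proteins were all lower in erlotinib-resistant than in vehicle cells, with a median log2 difference of -2.56. IFI27 (Entrez ID 3429, chromosome 14, 94577079 to 94583033), a small mitochondrial protein, stood at 252 FPKM in dual-resistant, 338 in erlotinib-resistant and 3181 in vehicle cells. IFI6 (Entrez ID 2537, chromosome 1, 27992572 to 27998724), a related hydrophobic protein, stood at 96.5 FPKM in dual-resistant, 86.0 in erlotinib-resistant and 1089 in vehicle cells. Erlotinib-resistant cells kept 10.6% of the vehicle level of IFI27 and 7.90% of that of IFI6. IFI44 stood at 20.1 FPKM in dual-resistant, 37.6 in erlotinib-resistant and 189.6 in vehicle cells and its neighbour IFI44L at 7.92 FPKM in dual-resistant, 20.9 in erlotinib-resistant and 126 in vehicle cells. IFI35, a leucine zipper protein that binds NMI, stood at 19.7 FPKM in dual-resistant, 15.9 in erlotinib-resistant and 58.6 in vehicle cells. XAF1, an antagonist of the apoptosis inhibitor XIAP, stood at 12.7 FPKM in dual-resistant, 7.18 in erlotinib-resistant and 59.0 in vehicle cells. These genes differed in which resistant library was lowest, the dual-resistant one for IFI44 and IFI44L and the erlotinib-resistant one for IFI35 and XAF1. EPSTI1 stood at 5.36 FPKM in dual-resistant, 1.66 in erlotinib-resistant and 15.0 in vehicle cells. LGALS3BP, a secreted glycoprotein that binds galectins, stood at 379.8 FPKM in dual-resistant, 169 in erlotinib-resistant and 577 in vehicle cells.

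The promoters of these genes were searched for the 2 elements that the interferon factors bind. The members were picked as textbook genes of the interferon response, so the shares below describe that list and not the differences between libraries. RefSeq windows of 300 bases on GRCh38.p14, from 250 before to 50 after each start, were found for 45 of the 54 members. None was given for IRF7, IFIT2, OAS2, OASL, MX2, GBP2, IFITM2, USP18 and TRIM22. The core of the interferon-stimulated response element was written as GAAA, then any 2 bases, then GAAA, on either strand. It was present in a window of 29 of the 45 members, or 64.4%, against 3.66% of 10285 other compared genes with a window and 4.38% of all 27305 genes in the table. The gamma-activated sequence TTCNNNGAA was present for 13 of the 45, or 28.9%, against 8.60% of the other compared genes and 9.38% of all genes in the table. Both were present for 8 members, and they overlap each other in BST2, EPSTI1, IFI27, IFITM1 and MX1. A match is a run of letters and was not shown to be a bound site.

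The 250 bases before the start are shown for the 4 members lowest in erlotinib-resistant over vehicle among those with a full core match there, so that the spacing of the matches can be seen. Each reads 5′ to 3′ along the gene, on GRCh38.p14, with core matches in capitals. IFIT1 is at chr10:89392373-89392622, plus strand. IFI6 is at chr1:27672193-27672442, minus strand. IFITM1 is at chr11:313790-314039, plus strand. IFI27 is at chr14:94110486-94110735, plus strand.

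IFIT1: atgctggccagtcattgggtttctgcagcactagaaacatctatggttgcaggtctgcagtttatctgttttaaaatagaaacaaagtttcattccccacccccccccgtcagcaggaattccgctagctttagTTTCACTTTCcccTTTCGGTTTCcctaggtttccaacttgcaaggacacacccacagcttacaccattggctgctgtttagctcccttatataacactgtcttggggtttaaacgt

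IFI6: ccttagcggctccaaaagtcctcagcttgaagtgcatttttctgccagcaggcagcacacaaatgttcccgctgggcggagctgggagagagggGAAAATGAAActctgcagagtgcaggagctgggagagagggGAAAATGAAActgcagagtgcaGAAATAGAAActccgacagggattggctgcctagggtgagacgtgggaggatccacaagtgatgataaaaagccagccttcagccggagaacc

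IFITM1: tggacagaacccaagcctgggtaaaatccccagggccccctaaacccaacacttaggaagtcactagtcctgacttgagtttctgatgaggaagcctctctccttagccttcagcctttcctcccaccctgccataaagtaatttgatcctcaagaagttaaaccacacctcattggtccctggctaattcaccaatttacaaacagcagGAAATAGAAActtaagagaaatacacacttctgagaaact

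IFI27: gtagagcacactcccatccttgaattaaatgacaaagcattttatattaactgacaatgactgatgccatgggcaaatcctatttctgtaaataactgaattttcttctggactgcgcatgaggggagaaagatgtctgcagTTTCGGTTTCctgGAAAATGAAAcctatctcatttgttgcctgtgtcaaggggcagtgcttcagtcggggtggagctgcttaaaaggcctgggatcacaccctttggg

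In IFIT1 the 2 matches begin 116 and 103 bases before the start. In IFI27 the 2 matches begin 108 and 95 bases before it. IFI6 has 3 matches, the first 156 and the last 93 bases before the start. IFITM1 shows 1 match, 40 bases before the start, and a further match of its window is not wholly inside the stretch shown. Of the 29 members with the core, 24 were lower in erlotinib-resistant than in vehicle cells, with a median log2 difference of -2.05. Of the 15 compared members with a window but no core, 10 were lower, with a median of -1.62. SAMHD1 has a window and was not compared. The 15 members with 2 or more core matches in 1 window were all lower, with a median of -2.38, and include ISG15, IFIT3, IFIT5, OAS3 and IFITM3. In dual-resistant over vehicle, 23 of the 29 with the core, 10 of the 15 without it and 14 of the 15 with 2 or more matches were lower, and HERC5 was the one of these 15 within the limit, at -0.46. These counts hold members whose direction the minimum of 1 FPKM fixed, RTP4 and RSAD2 with the core and CMPK2 without it. They are therefore given as a description. Over all genes compared, 6.03% were lower in erlotinib-resistant over vehicle and 10.4% in dual-resistant over vehicle. Members without the core that were lower include OAS1, XAF1, DDX58 and IRF9.

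The second comparison asked what differed between dual-resistant cells and the erlotinib-resistant population they came from. Most members stayed within the limit: 3 were higher, 4 were lower and 46 lay between. Across all 13385 genes compared, 10.1% were higher and 7.22% lower. The count of lower members was thus close to the background, and that of higher members below it. The median log2 difference was -0.13 over the members and -0.03 over all genes. The erlotinib-resistant library is shared with the first comparison, so a value high or low in it moves both.

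EPSTI1, LGALS3BP and HERC5 were the higher members. EPSTI1 had 5.36 FPKM in dual-resistant and 1.66 in erlotinib-resistant cells, a log2 difference of 1.26. LGALS3BP had 379.8 FPKM in dual-resistant and 169 in erlotinib-resistant cells, a difference of 1.16 that made it the most abundant member of the dual-resistant library. HERC5 had 4.40 FPKM in dual-resistant and 1.64 in erlotinib-resistant cells, a difference of 1.03. None of the 3 reached its vehicle level. Just inside the limit were IFIT1, at 0.93, and MX2, at 0.90. With a pseudocount of 0.1 FPKM these genes and TRIM22 also passed the limit, which gave 6 higher members. IFIT1 also passed it, at 1.02, with libraries scaled to the same sum.

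IFITM1, PLSCR1, IFI44L and ISG20 were the lower members, each having been lower already in erlotinib-resistant than in vehicle cells. IFITM1 had 10.8 FPKM in dual-resistant and 36.1 in erlotinib-resistant cells, a log2 difference of -1.65. PLSCR1 had 28.2 FPKM in dual-resistant and 87.6 in erlotinib-resistant cells, a difference of -1.60. IFI44L differed by -1.30 and ISG20 by -1.22. IRF9 lay just inside the limit, at -0.97, and outside it, at -1.02, with a pseudocount of 0.1 FPKM. By role, the IFIT family had a median of 0.51, with all 4 above 0, and the OAS family a median of -0.47, with all 4 below 0. All 8 of these values were within the limit and have no error estimate.

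**Figure D3:**
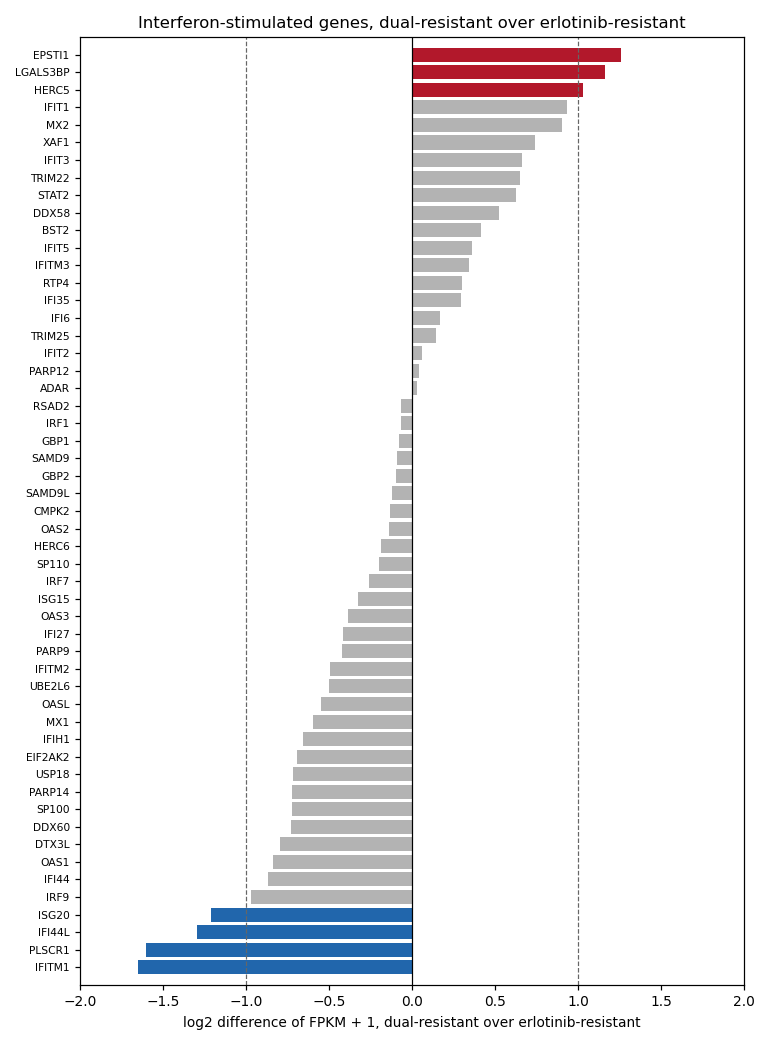
Log2 difference of FPKM + 1 for each of the 53 compared interferon-stimulated genes, dual-resistant over erlotinib-resistant (1 library each), sorted, with dashed lines at the limit of 1 in each direction. The 3 red bars (EPSTI1, LGALS3BP, HERC5) are higher and the 4 blue bars (IFITM1, PLSCR1, IFI44L, ISG20) lower by the limit, and grey bars are within it.

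The third comparison spans both steps and sets dual-resistant cells beside vehicle cells. Of the 53 members, 40 were lower and none was higher, with 27 lower by at least 4-fold and 13 by at least 8-fold. Across all 13378 genes compared, 10.4% were lower and 11.0% higher, with 468 lower by at least 4-fold and 180 by at least 8-fold. The 27 members hold RSAD2 and CMPK2, whose direction the minimum fixed. The median log2 difference was -2.06 over the members and -0.01 over all genes. IFITM1 had the lowest value, at -5.02, followed by OAS1 at -3.89 and IFI44L at -3.83. ISG15 was 11.1-fold, IFI6 11.2-fold and IFI27 12.6-fold lower in dual-resistant than in vehicle cells.

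Both comparisons with vehicle use the same vehicle library, so their counts are given side by side and not as a shared result. The lower calls in erlotinib-resistant cells that were within the limit in dual-resistant cells were STAT2, HERC5 and LGALS3BP, at -0.89, -0.46 and -0.60 for dual-resistant over vehicle. DTX3L and SP100 were called lower in dual-resistant cells and were within the limit in erlotinib-resistant cells, at -0.66 and -0.49. Within the limit against vehicle in both were EIF2AK2, IRF1, GBP2, IFITM2, TRIM25, PARP12, PARP14, ADAR, SAMD9 and SAMD9L. Scaling each library to the same sum of FPKM raised the median of all genes by 0.14 in the first and 0.23 in the third comparison. The medians of the members minus those of all genes changed little, to -1.79 in erlotinib-resistant and -2.03 in dual-resistant cells over vehicle, against -1.82 and -2.05 as deposited. With that scaling, 741 genes were higher and 640 lower in the first comparison, against 510 and 807 as deposited, and 2047 were higher and 1056 lower in the third, against 1470 and 1397.

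Transcripts of the interferons themselves were near or at 0. Of 21 interferon genes in the table, 17 were listed at 0 in all 3 libraries and the other 4 stayed below 1 FPKM. IFNB1, the type I interferon made by most cell types, stood at 0.0575 FPKM in dual-resistant, 0.0749 in erlotinib-resistant and 0.186 in vehicle cells. IFNE, which is expressed in epithelia, stood at 0.421 FPKM in dual-resistant, 0.655 in erlotinib-resistant and 0.698 in vehicle cells. IL29, which encodes a type III interferon, had 0.0716 FPKM in vehicle cells and was listed at 0 in both resistant libraries. IL28B, which encodes another, had 0.0588 FPKM in dual-resistant and 0.0464 in erlotinib-resistant cells and was listed at 0 in vehicle cells.

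Transcripts of the receptors, kinases and STAT factors were mostly within the limit. In erlotinib-resistant over vehicle, 1 of 11 was lower and 0 higher, the median log2 difference being 0.08. In dual-resistant over vehicle, 2 were lower and 1 higher, with a median of -0.07. The shares over all genes compared were 6.03% lower in the former, and 10.4% lower with 11.0% higher in the latter. IFNAR1 and IFNAR2, the chains of the type I receptor, had their lowest values in vehicle cells. IFNAR1 was within the limit, at 16.8 FPKM in dual-resistant, 15.3 in erlotinib-resistant and 11.9 in vehicle cells, and IFNAR2 was higher in dual-resistant over vehicle, at 25.5 FPKM in dual-resistant, 15.4 in erlotinib-resistant and 8.61 in vehicle cells. JAK1, the kinase shared by these receptors, stood at 118 FPKM in dual-resistant, 87.5 in erlotinib-resistant and 73.2 in vehicle cells. TYK2, the kinase of the type I receptor, was within the limit, with log2 differences of -0.23 for erlotinib-resistant over vehicle and 0.04 for dual-resistant over vehicle. IFNGR1, the ligand-binding chain of the type II receptor, was lower in both, at 17.6 FPKM in dual-resistant, 21.8 in erlotinib-resistant and 66.9 in vehicle cells.

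IFNGR2, JAK2, STAT3 and the type III receptor chains IL28RA and IL10RB were within the limit in all comparisons. IFNGR2 stood at 30.2 FPKM in dual-resistant, 38.4 in erlotinib-resistant and 31.8 in vehicle cells. JAK2 stood at 1.85 FPKM in dual-resistant, 2.21 in erlotinib-resistant and 2.10 in vehicle cells. STAT3, a factor of other cytokines as well, stood at 46.4 FPKM in dual-resistant, 39.6 in erlotinib-resistant and 33.0 in vehicle cells. IL28RA, the specific chain, stood at 1.08 FPKM in dual-resistant, 2.13 in erlotinib-resistant and 1.96 in vehicle cells, and IL10RB, the shared chain, at 15.1 FPKM in dual-resistant, 22.7 in erlotinib-resistant and 25.0 in vehicle cells.

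Among sensors and adaptors, 3 of 12 compared were lower in erlotinib-resistant over vehicle and 4 lower with 1 higher in dual-resistant over vehicle. Over all genes compared, 6.03% were lower in the former, and 10.4% lower with 11.0% higher in the latter. AIM2, a sensor of cytosolic DNA, stood at 0.356 FPKM in dual-resistant, 0.147 in erlotinib-resistant and 7.17 in vehicle cells. It reached 1 FPKM in the vehicle library alone, so the minimum itself fixed its direction against vehicle. IFI16, a related DNA sensor, stood at 47.5 FPKM in dual-resistant, 56.6 in erlotinib-resistant and 154 in vehicle cells, and DHX58, a regulator of RIG-I and MDA5, at 4.29 FPKM in dual-resistant, 4.90 in erlotinib-resistant and 12.5 in vehicle cells. These 3 are themselves induced by interferon and were lower in both resistant libraries. TMEM173, the adaptor STING, stood at 7.75 FPKM in dual-resistant, 12.6 in erlotinib-resistant and 25.9 in vehicle cells and was lower in dual-resistant over vehicle, at -1.62. TLR3, an endosomal sensor of double-stranded RNA, was the higher one, at 5.93 FPKM in dual-resistant, 2.67 in erlotinib-resistant and 2.37 in vehicle cells. The adaptor MAVS had 17.5 FPKM in dual-resistant, 13.0 in erlotinib-resistant and 10.7 in vehicle cells, and the kinase TBK1 stood at 195 FPKM in dual-resistant, 192 in erlotinib-resistant and 187 in vehicle cells. IKBKE, MB21D1, TICAM1, IRF3 and IRF5 were within the limit in each comparison, and ZBP1 stayed below 1 FPKM. IKBKE, a kinase related to TBK1, lay just inside it against vehicle, at 5.45 FPKM in dual-resistant, 5.46 in erlotinib-resistant and 11.8 in vehicle cells.

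Of 8 inhibitors of interferon signalling, SOCS1, a feedback inhibitor of the JAK kinases, was lower in both resistant libraries, at 2.22 FPKM in dual-resistant, 2.07 in erlotinib-resistant and 7.19 in vehicle cells. SOCS3 stood at 15.5 FPKM in dual-resistant, 8.45 in erlotinib-resistant and 16.0 in vehicle cells and was within the limit. The phosphatase PTPN11 was higher in erlotinib-resistant over vehicle, at 49.9 FPKM in dual-resistant, 59.2 in erlotinib-resistant and 26.0 in vehicle cells, and PTPN1, which acts on TYK2 and JAK2, was higher in dual-resistant cells than in either other library, at 49.1 FPKM in dual-resistant, 19.9 in erlotinib-resistant and 23.3 in vehicle cells. PTPN2, a phosphatase of this pathway, lay just inside the limit in dual-resistant over erlotinib-resistant, at -0.99. PIAS1, PTPN6 and IRF2 were within the limit throughout.

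A further list of interferon-induced genes outside the members was also counted. In erlotinib-resistant over vehicle, 14 of 36 compared were lower and 1 higher, with a median log2 difference of -0.85, and in dual-resistant over vehicle 13 were lower and 0 higher, the median being -0.75. The shares lower over all genes compared were 6.03% in the former and 10.4% in the latter. WARS, a tryptophanyl tRNA synthetase and known target of type II interferon, stood at 68.4 FPKM in dual-resistant, 191 in erlotinib-resistant and 727 in vehicle cells. TYMP, a thymidine phosphorylase, stood at 5.46 FPKM in dual-resistant, 14.4 in erlotinib-resistant and 61.4 in vehicle cells, and LAMP3, a lysosomal membrane protein, at 2.35 FPKM in dual-resistant, 7.55 in erlotinib-resistant and 29.1 in vehicle cells. These 3 were lower in each step, dual-resistant over erlotinib-resistant included. TNFSF10, the death ligand TRAIL, stood at 1.14 FPKM in dual-resistant, 1.67 in erlotinib-resistant and 15.5 in vehicle cells, and APOL1, an apolipoprotein that lyses trypanosomes, at 97.2 FPKM in dual-resistant, 38.6 in erlotinib-resistant and 188 in vehicle cells. BATF2, a leucine zipper factor, stood at 2.11 FPKM in dual-resistant, 4.09 in erlotinib-resistant and 11.2 in vehicle cells, and TRIM21, a cytosolic antibody receptor, at 8.15 FPKM in dual-resistant, 5.62 in erlotinib-resistant and 15.0 in vehicle cells.

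PSMB8, a subunit of the immunoproteasome, stood at 50.6 FPKM in dual-resistant, 98.2 in erlotinib-resistant and 205 in vehicle cells, and NLRC5, an activator of MHC class I genes, at 2.60 FPKM in dual-resistant, 9.75 in erlotinib-resistant and 12.3 in vehicle cells. The higher gene in erlotinib-resistant over vehicle was CD274, the checkpoint ligand PD-L1, at 2.83 FPKM in dual-resistant, 13.0 in erlotinib-resistant and 4.91 in vehicle cells. In dual-resistant over erlotinib-resistant, CXCL10, a chemokine induced by interferons, was higher, at 1.84 FPKM in dual-resistant, 0.116 in erlotinib-resistant and 0.992 in vehicle cells, as was APOL1. The erlotinib-resistant value of CXCL10 stood on few fragments. CXCL10 met the minimum of 1 FPKM through its dual-resistant value only. Its direction in this comparison was therefore set by the minimum, which was not the case for APOL1.

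**Figure D4:**
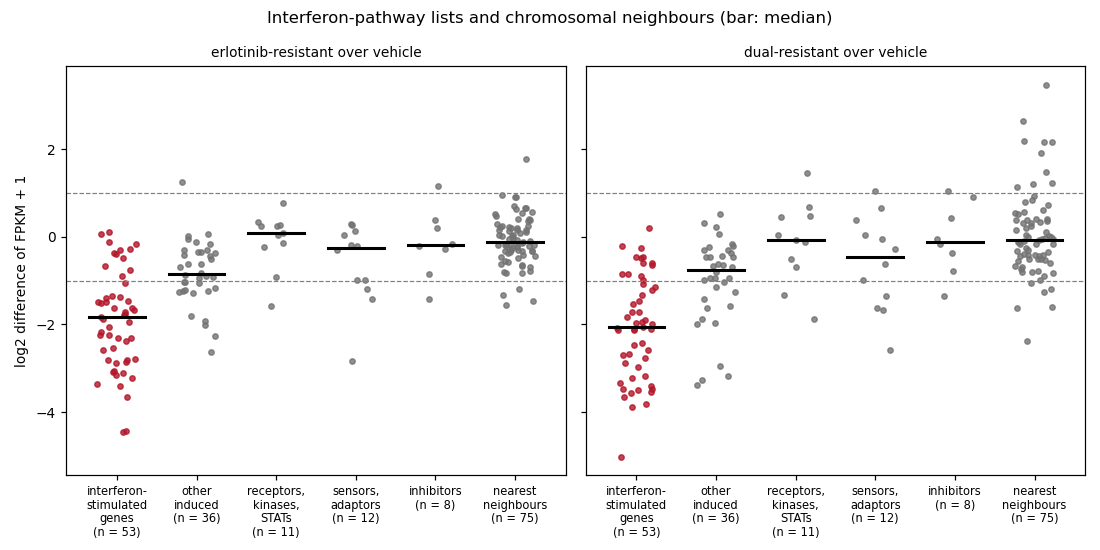
Log2 differences of FPKM + 1 against vehicle for erlotinib-resistant (left) and dual-resistant cells (right), with 1 point per gene, a black bar at each median and dashed lines at the limit of 1 in each direction. The members' medians lie at -1.82 and -2.06, those of the receptor list at 0.08 and -0.07, and those of the nearest neighbours at -0.11 and -0.07.

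Chromosomal neighbours of the members were counted in the same way. The nearest compared gene on each side that belongs to none of the interferon lists was taken for each member, which gave 75 distinct neighbours. Some lie far off, by start up to 3395 kb for RPS7 and RSAD2. The set also holds DDX60L, IFI27L1 and IFI27L2, named as relatives of members. In erlotinib-resistant over vehicle, 4 of the 75 were lower and 1 higher, with a median log2 difference of -0.11, against 41 of 53 members lower. In dual-resistant over vehicle, 6 were lower and 10 higher, with a median of -0.07, against 40 of 53 members lower. Of the higher neighbours, SLC16A12, TBXAS1, PTGFR and LPHN2 reached 1 FPKM in dual-resistant cells alone. Of the lower ones, TMPRSS2 reached it in vehicle cells alone. That minimum fixed the direction of these genes against the other libraries. Over all genes compared, 6.03% were lower and 3.81% higher in erlotinib-resistant over vehicle. In dual-resistant over vehicle, 10.4% of all genes were lower and 11.0% higher. In dual-resistant over erlotinib-resistant, 11 of the 75 neighbours were higher and 7 lower, the median being 0.01. Of the 53 members, 3 were higher and 4 lower there, and of all genes compared, 10.1% were higher and 7.22% lower.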

How the data were processed

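The deposited table holds gene-level FPKM, 1 column per library, made by the authors with TopHat 1.3 and Cufflinks 1.3 on GRCh37, per the submitters' processing notes. The header names no unit, and FPKM was taken from these tools and the values. Annotation and strandedness: not given in the sources used here. Hence overlapping genes and close copies may share reads. An exact 0 can be a failed estimate.

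Rows sharing a symbol were summed, missing cells left out and log2(FPKM + 1) differences taken with pandas 2.3.3 on Python 3.11.15. Genes reaching 1 FPKM in any library were compared, and called at a log2 difference of 1, since 1 library per group allows no test. The calling step was checked by multiplying the vehicle values of chosen genes by known folds, without added noise, and recovering those genes. That check says nothing about the error of a call. The worth of a fragment was estimated from percentile 1 of FPKM times length over single-exon genes of 1 to 5 kb. Starts were taken to count from 0: of 49 rows ending with their RefSeq gene, 16 start 1 base before it and 2 at the same base. Promoter windows and their coordinates come from RefSeq, GRCh38.p14. The members, gene lists and limits were chosen with earlier results of these data known. All members are named; of the further induced genes, up to 6 with the largest difference per comparison, with TRIM5 and LIPA added for their overlap with members. The values of 1 gene of the receptor, kinase and STAT list, which its counts and median include, are not reported here. Alternatives changed the pseudocount, minimum, scaling, limit and handling of repeated symbols.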

Additional observations from a re-analysis of the deposited data

How the results depend on the processing

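No paired analysis was possible because each group has 1 library. The lower calls among the members held at 40 or 41 in erlotinib-resistant over vehicle and at 37 to 41 in dual-resistant over vehicle under every alternative that kept the limit of 1. The members' medians ranged from -1.92 to -1.65 in erlotinib-resistant and from -2.17 to -1.81 in dual-resistant over vehicle, and from -0.18 to -0.06 in dual-resistant over erlotinib-resistant. Of 159 values of single members, 9 crossed the limit under some alternative and none turned its sign from a call. Scaling each library to the same sum took GBP1 inside the limit against vehicle, at -0.89 in erlotinib-resistant and -0.89 in dual-resistant cells, and RTP4 and SP100 in dual-resistant cells, at -0.94 and -0.95.

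With a pseudocount of 0.1 FPKM, 856 genes were higher in erlotinib-resistant over vehicle, against 510, and 6 members were higher in dual-resistant over erlotinib-resistant, against 3. At a limit of 2 on the log2 scale, 58 genes were higher and 213 lower in erlotinib-resistant over vehicle, 24 of them members. At that limit, 391 genes were higher and 251 lower in dual-resistant over erlotinib-resistant, with 0 members higher and 0 lower, and 424 were higher and 468 lower in dual-resistant over vehicle. The stricter limit lowers counts by its construction. Values under 1 FPKM, such as those of RSAD2, CMPK2 and RTP4 in the resistant libraries, stand on fewer fragments than the vehicle values. This limits what can be said of their size.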
